A study of Homo sapiens and Mus musculus with 4 samples.

Results

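The genes described here make cholesterol, control its supply, and move, store or export it, and they include the enzymes that begin fatty acid synthesis. They were listed by name, with no threshold on a measured value, as 31 genes whose symbols were looked up among the human genes in the human cell lines and among the mouse genes in the mouse cell lines (Cyp51 in mouse for CYP51A1). This gave 30 of 32738 human genes and 31 of 27998 mouse genes, or 61 of the 60736 genes of the table, and the level of human ACACA was not analysed here. Messenger RNA was sequenced in bulk from 4 established lines, all untreated, with 1 library per line. Both human lines, Jurkat and TALL104, came from T-cell leukaemias, and the study describes them as CD4 and CD8 T cells. Of the mouse lines, EL4 came from a T-cell lymphoma and IVA12 is a B-lineage hybridoma, a fusion of an antibody-making cell with a tumour cell. The libraries were made as a baseline against which single-cell methods could be set, so the comparisons within a species answer a question about the lines and not about a treatment. Per the study's methods, Jurkat and EL4 were grown in RPMI, EL4 with added 2-mercaptoethanol, IVA12 in DMEM, and TALL104 in IMDM with interleukin-2 and a larger share of fetal bovine serum. The paper also describes TALL104 cells as smaller than those of the other lines, harder to culture and slow to grow, and reports limited viability for them. The line, its medium, its serum and the state of its culture cannot be told apart in this design. Each line is tumour-derived and long in culture, which limits it as a model of a lymphocyte.

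Cells build cholesterol from acetyl-CoA in a long chain of steps, first to the linear hydrocarbon squalene and then, through ring closure, to lanosterol and cholesterol. The chain is controlled by SREBPs, transcription factors that are held in the membrane of the endoplasmic reticulum while sterols are plentiful and are cut free to act in the nucleus when sterols run low. Lymphocytes raise this synthesis when they grow and divide, and they also take up cholesterol from lipoproteins, release it from lysosomes, store it as esters and export it.

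Levels are given as FPKM, fragment counts scaled by gene length and by library size, so they can be compared between genes on a per-length scale. The scaling totals solved from the FPKM were 34783047 reads for Jurkat, 28345951 for TALL104, 32149319 for EL4 and 25286728 for IVA12. They may differ from the number of reads sequenced. The genes of cholesterol handling took 137920 reads in the Jurkat library, 50185 in that of TALL104, 103358 in that of EL4 and 75321 in that of IVA12. Each level has a 95% exact Poisson interval and each ratio an exact conditional interval, both from recovered reads, and both cover counting error only. With 1 library per line there is no spread between replicates, so no difference between lines was tested. The T-cell markers were present in both human lines, with all 8 above 1 FPKM in each, and CD2 and CD5 differed most between them. In the mouse lines all 8 T-cell markers were higher in EL4, led by Cd3d and Cd3g. IVA12 held the plasma-cell genes Jchain at 1289 FPKM and Mzb1 at 499 FPKM, and the B-cell gene Cd79b at 163 FPKM. Of the 8 B-lineage markers 3, Cd79a and Pax5 among them, were under 1 FPKM there, and 5 were past 1.5-fold toward IVA12. Mitochondrially encoded genes held 14.9% of the human FPKM in Jurkat and 20.6% in TALL104, and 5.04% and 4.79% of the mouse FPKM in EL4 and IVA12.

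By summed level, the genes of cholesterol handling stood highest in Jurkat and lowest in TALL104. Their summed level was 870 FPKM in Jurkat against 369 FPKM in TALL104, and 660 FPKM in EL4 against 524 FPKM in IVA12. These sums were 0.343%, 0.146%, 0.205% and 0.162% of the FPKM of the library's own species. The human sums do not include ACACA. With mitochondrially encoded genes left out, the share was lowest in IVA12, at 0.170%, against 0.184% in TALL104. The median gene of the module was at 17.0 and 11.1 FPKM in Jurkat and TALL104 and at 13.5 and 13.0 FPKM in EL4 and IVA12. The median over all genes with at least 1 FPKM was 8.64, 8.62, 10.7 and 10.2 FPKM in the same order, so the module's median lay above that of detected genes in all 4 libraries. At least 10 FPKM was reached by 20 and 16 of 30 genes in Jurkat and TALL104 and by 23 and 19 of 31 genes in EL4 and IVA12. Under 1 FPKM were CYP51A1 and ABCA1 in both human lines and Abca1 in EL4, and no gene of the module was under 1 FPKM in IVA12.

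**Figure D1:**
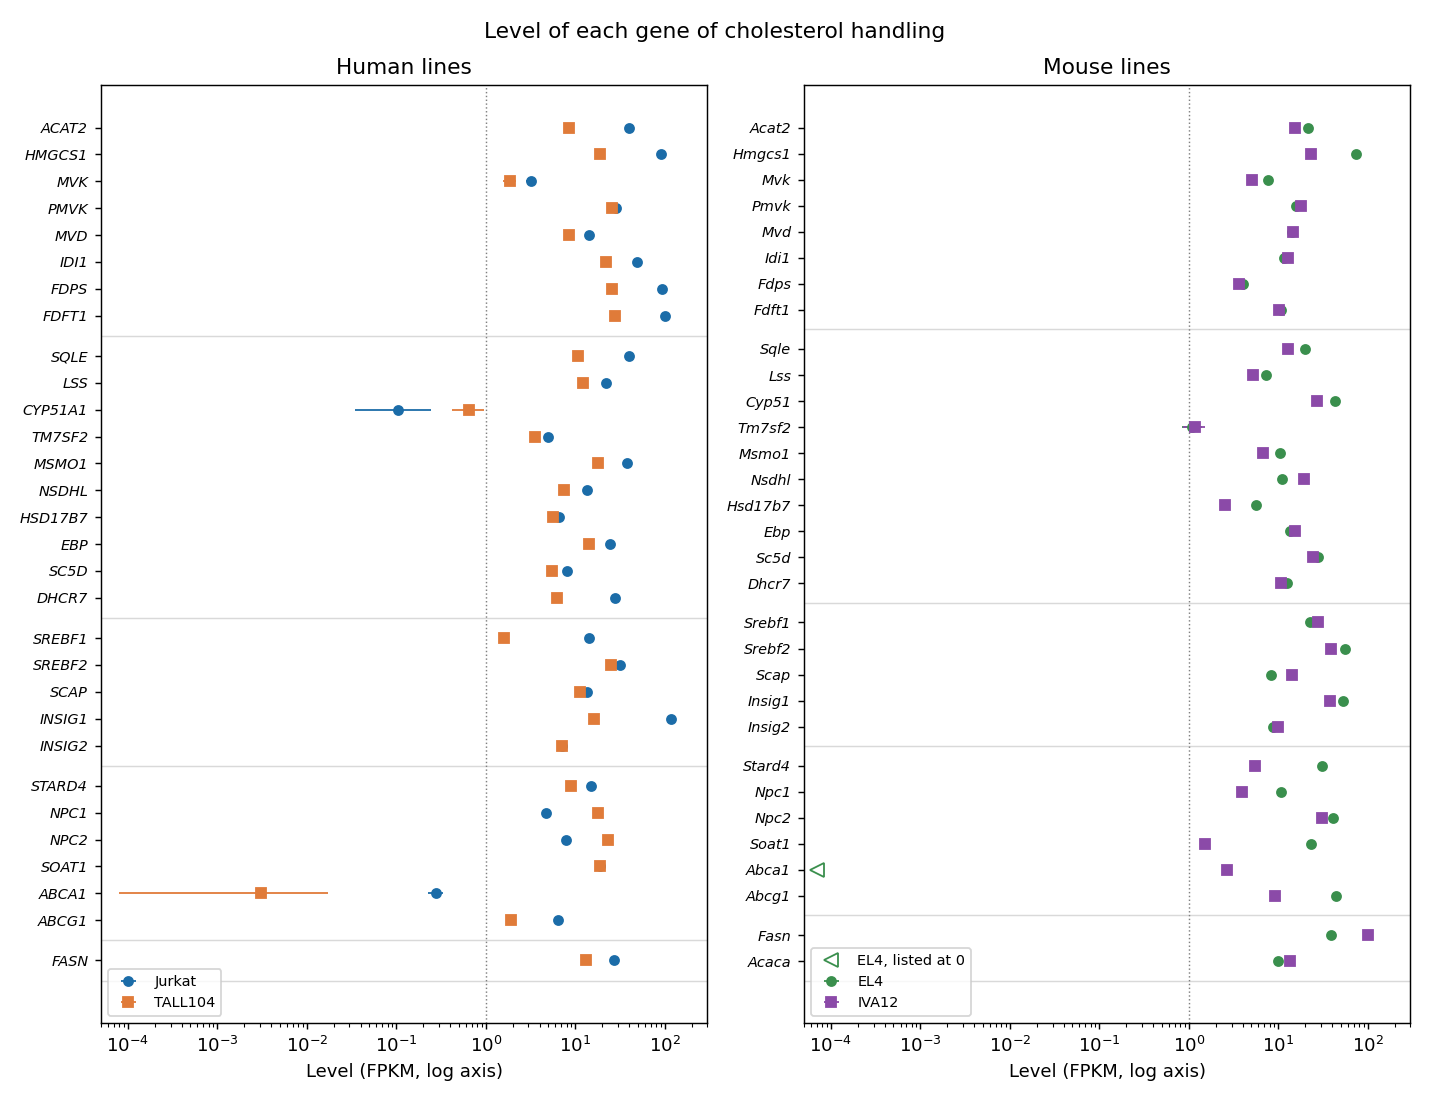
Level of each gene in FPKM on a log axis, human lines on the left and mouse lines on the right, ordered by role from top to bottom (acetyl-CoA to squalene, squalene to cholesterol, control by SREBP, transport with storage and efflux, fatty acid synthesis). Bars are 95% exact Poisson intervals, the dotted line is 1 FPKM, and the open arrow marks Abca1, which was at 0 reads in EL4; Jurkat lies to the right of TALL104 for 27 of 30 genes.

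The highest genes of the module differed between the species. In Jurkat the highest 3 were INSIG1 at 117 FPKM (115 to 119), FDFT1 at 100.2 (98.8 to 102) and FDPS at 93.7 (92.0 to 95.4). HMGCS1, next at 91.2 (89.8 to 92.7), had an interval overlapping that of FDPS. In TALL104 the highest 3 were FDFT1 at 27.9 FPKM (27.1 to 28.8), FDPS at 25.9 (24.9 to 26.9) and PMVK at 25.7 (24.1 to 27.4), the latter pair with overlapping intervals. The interval of SREBF2, next at 25.1 (24.4 to 25.8), overlapped both of these, and that of NPC2 at 23.1 (22.0 to 24.2) overlapped that of PMVK. Farnesyl diphosphate synthase and squalene synthase, the products of FDPS and FDFT1, thus led the human lists together with a control gene or another mevalonate enzyme. In EL4 the highest were Hmgcs1 at 74.3 FPKM (72.6 to 76.0), Srebf2 at 56.05 (54.9 to 57.2) and Insig1 at 53.2 (51.8 to 54.7). In IVA12 they were Fasn at 101.0 FPKM (99.8 to 102), Srebf2 at 38.3 (37.2 to 39.4) and Insig1 at 37.5 (36.1 to 38.9), the latter pair with overlapping intervals. Mouse Fdps and Fdft1 were at 4.05 and 10.7 FPKM in EL4 and at 3.61 and 10.1 FPKM in IVA12. Fdps ranked 29 of 31 in EL4 and 27 of 31 in IVA12, and Fdft1 ranked 20 and 19, in the middle of the detected mouse genes.

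Between the human lines, 17 of 30 genes were more than 1.5-fold higher in Jurkat and 2 were more than 1.5-fold higher in TALL104, with ratios taken on FPKM + 1. These are 56.7% and 6.67% of the module. Among human genes with at least 1 FPKM in either line, 34.2% were past that ratio toward Jurkat and 28.4% toward TALL104, and among all human genes of the table the shares were 13.8% and 11.4%. The median log2 ratio of the module was 0.71 toward Jurkat, against 0.10 over the 12214 human genes with at least 1 FPKM in either line. Where a gene reached 1 FPKM in both lines, the FPKM themselves had a median log2 ratio of 0.11 toward Jurkat. With that shift taken out, 15 genes of the module stayed past 1.5-fold toward Jurkat and 3 toward TALL104, and the module's median became 0.60. All 15 proliferation genes looked at beside the module were also past 1.5-fold toward Jurkat, with a median log2 ratio of 3.31 and a summed level of 1569 FPKM against 234 FPKM. CCNB1, a mitotic cyclin, was at 116 FPKM in Jurkat and 4.51 in TALL104, and TYMS, which makes thymidylate, was at 267 and 13.9 FPKM. The part of cell division in the cholesterol genes' difference was not tested.

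The first steps, from acetyl-CoA to squalene, differed most as a group, with 6 of 8 genes past 1.5-fold toward Jurkat, none toward TALL104, and a median log2 ratio of 1.47. Their summed level was 420 FPKM in Jurkat and 139 FPKM in TALL104, a ratio of 3.01. ACAT2, which joins acetyl-CoA units, was at 39.8 FPKM (38.8 to 40.8) in Jurkat and 8.44 FPKM (7.93 to 8.96) in TALL104, a ratio of 4.71 (4.41 to 5.04). HMGCS1, which makes HMG-CoA from that product, was at 91.2 FPKM (89.8 to 92.7) and 19.0 FPKM (18.2 to 19.7), a ratio of 4.81 (4.61 to 5.02). Both genes at the entry of the pathway therefore had Jurkat to TALL104 ratios whose intervals lay above 4. Counted genes on the opposite strand overlap 37.7% of the exon bases of HMGCS1, 17.2% of ACAT2, 18.6% of FDPS and 15.0% of IDI1. Whether counting used strand is not known, so reads of those genes may be included in these levels.

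The kinases and the decarboxylase that follow differed less. MVK, mevalonate kinase, was at 3.19 FPKM in Jurkat and 1.86 FPKM in TALL104, just inside the limit at a log2 ratio of 0.55. PMVK, the second kinase, was at 28.3 and 25.7 FPKM, a ratio of 1.10 (1.01 to 1.20). MVD, the decarboxylase, was at 14.2 and 8.53 FPKM, a log2 ratio of 0.67 that dropped to 0.57 and below the limit when the median shift was taken out. The group was thus not uniform, since PMVK was nearly level between the lines and its neighbours on the chain were not. Further down, IDI1, which interconverts the isoprene building blocks, was at 49.0 and 21.9 FPKM. FDPS was 3.62-fold (3.47 to 3.77) higher in Jurkat and FDFT1 3.59-fold (3.47 to 3.72) higher, so the enzymes on either side of farnesyl diphosphate differed by ratios with overlapping intervals.

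From squalene to cholesterol, 6 of 10 genes were past 1.5-fold toward Jurkat and none toward TALL104, and the median log2 ratio was 0.75. The summed level was 186 FPKM in Jurkat and 84.4 FPKM in TALL104. SQLE, squalene epoxidase, was at 40.3 FPKM in Jurkat and 10.8 FPKM in TALL104, a ratio of 3.73 (3.52 to 3.97). DHCR7, the reductase of a last step to cholesterol, was at 27.5 FPKM (26.7 to 28.4) and 6.22 FPKM (5.78 to 6.69), a ratio of 4.43 (4.09 to 4.79). The first and the last enzyme of this stretch thus had the largest ratios toward Jurkat in it. Between them the ratios toward Jurkat were smaller. LSS, which closes the ring to lanosterol, was at 22.2 and 12.3 FPKM, MSMO1, a methyl sterol oxidase, at 38.1 and 18.1, NSDHL, a sterol dehydrogenase, at 13.5 and 7.51, and EBP, a sterol isomerase, at 24.4 and 14.3. TM7SF2, a sterol reductase, was at 4.90 and 3.51 FPKM, HSD17B7, a keto-sterol reductase, at 6.55 and 5.60, and SC5D, a sterol desaturase, at 8.19 and 5.44, all within 1.5-fold on the FPKM + 1 scale.

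CYP51A1, the lanosterol demethylase, was the single synthesis enzyme with a lower level in Jurkat. It was at 0.106 FPKM (0.0344 to 0.247) from 5 reads in Jurkat and 0.649 FPKM (0.420 to 0.959) from 25 reads in TALL104. Its log2 ratio of -0.58 lay within the limit with 1 FPKM added, and with 0.1 FPKM added it was -1.86. The gene lies at chr7:91714301-91764117 of GRCh37 on the minus strand, and in the annotation used here 68.2% of its exon bases are shared with same-strand genes that have no row in the table and 0% with same-strand genes that have one. EBP shares 36.4% of its exon bases with such a gene and was at 24.4 FPKM in Jurkat. For CYP51A1 the length solved for from its FPKM was 1358 bases or a multiple of that, against 4171 in the annotation used here. The gene model on which its reads were counted is therefore not known, and its level is uncertain. Mouse Cyp51 was at 43.0 FPKM in EL4 and 27.4 FPKM in IVA12.

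Among the control genes the difference between the human lines was carried by SREBF1 and INSIG1, while SREBF2, SCAP and INSIG2 stayed within 1.5-fold. INSIG1, at chr7:155089486-155101945 of GRCh37, encodes a protein that keeps SCAP and the SREBPs in the endoplasmic reticulum and is itself a target of SREBPs. It was at 117 FPKM in Jurkat and 16.0 FPKM (15.3 to 16.8) in TALL104, a ratio of 7.28 (6.92 to 7.66), and 2.88% of the detected human genes had a larger log2 ratio toward Jurkat. Its relative INSIG2 was at 7.19 FPKM (6.75 to 7.66) and 7.09 FPKM (6.61 to 7.60), a ratio of 1.01 (0.923 to 1.11). The pair therefore parted within the lines, with INSIG1 16.2 times (15.2 to 17.3) the level of INSIG2 in Jurkat and 2.26 times (2.07 to 2.46) in TALL104.

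SREBF1, at chr17:17713713-17740316 of GRCh37, encodes the SREBP that acts chiefly on fatty acid genes. It was at 14.3 FPKM (13.9 to 14.8) in Jurkat and 1.58 FPKM (1.42 to 1.76) in TALL104, a ratio of 9.04 (8.12 to 10.1). SREBF2, whose product acts chiefly on the cholesterol genes, was at 31.9 FPKM (31.2 to 32.6) and 25.1 FPKM (24.4 to 25.8), a ratio of 1.27 (1.23 to 1.31). SREBF1 was below SREBF2 in both lines, at 0.450 times its level (0.433 to 0.467) in Jurkat and 0.0631 times (0.0566 to 0.0702) in TALL104. SCAP, the escort that carries SREBPs to the Golgi, was at 13.4 FPKM (12.9 to 13.9) and 11.3 FPKM (10.8 to 11.8), a ratio of 1.18 (1.11 to 1.25).

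**Figure D2:**
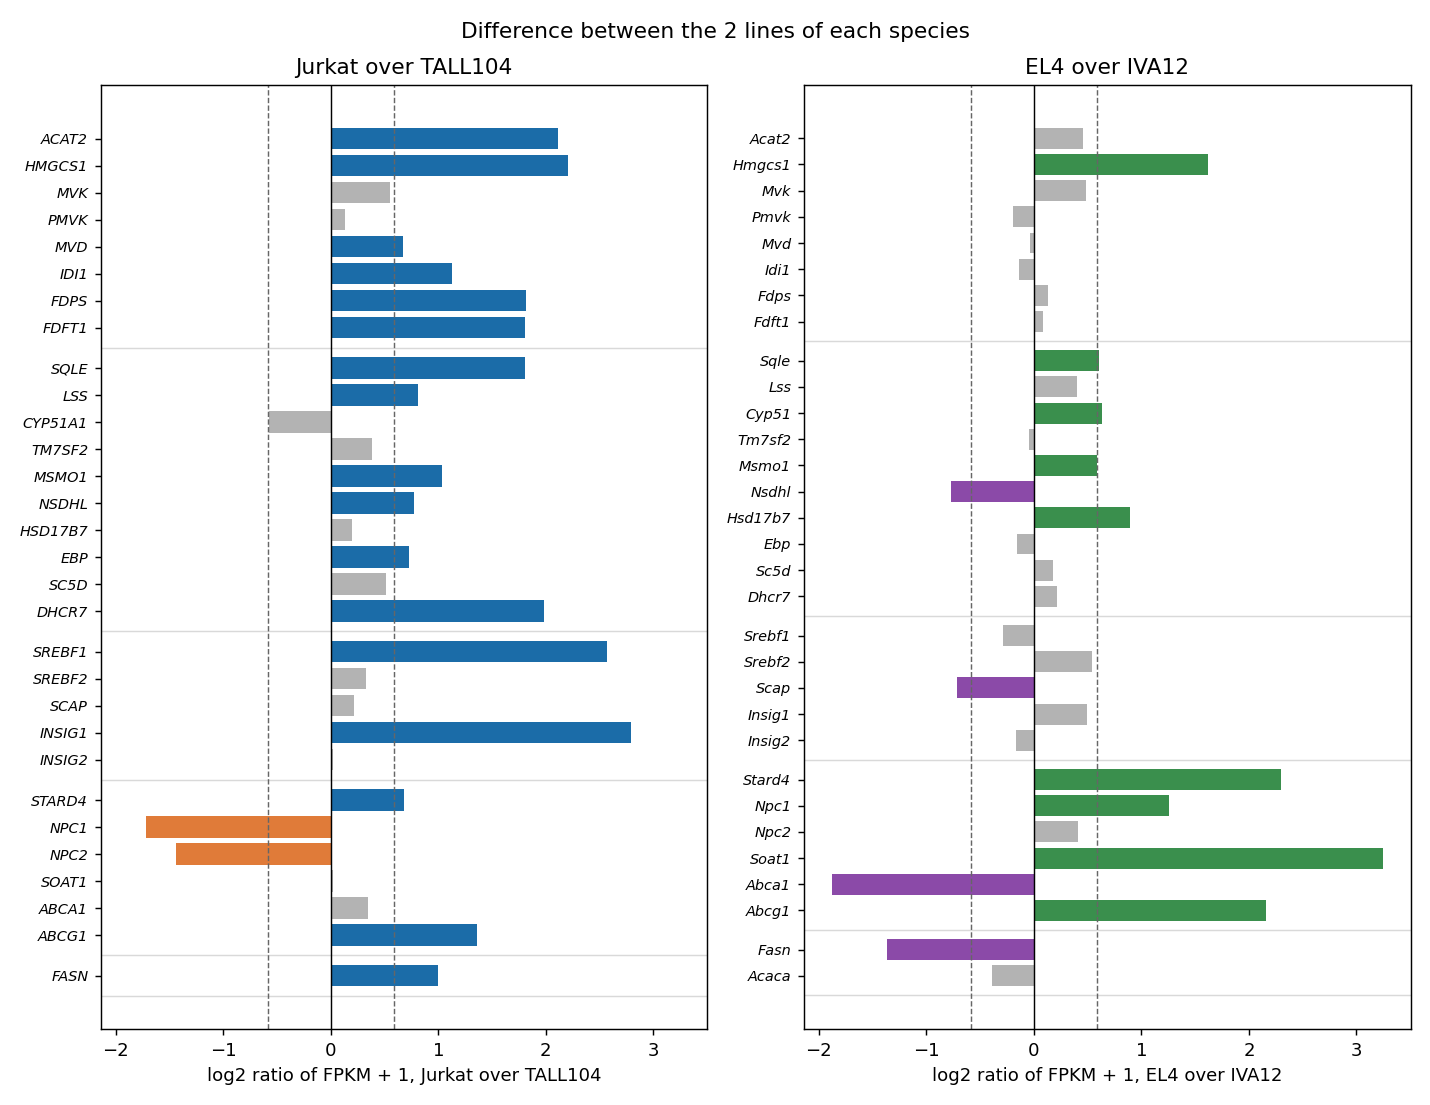
Log2 ratio of FPKM + 1 for each gene, Jurkat over TALL104 on the left and EL4 over IVA12 on the right, ordered by role as in the plot of levels, with dashed lines at 1.5-fold. Coloured bars are past 1.5-fold toward the line of that colour and grey bars are within it, 17 toward Jurkat and 2 toward TALL104 on the left, 9 toward EL4 and 4 toward IVA12 on the right.

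Promoter sequence is shown for 4 of the 5 human genes with the largest ratios on FPKM + 1 and for SREBF2, because SREBPs act on such stretches together with NF-Y, a factor that binds CCAAT. Windows of 300 bases, 250 before and 50 after an annotated start, came from RefSeq on GRCh38.p14, a build other than that of the expression table, and 26 of the 31 genes matched. ACAT2, FDFT1, SQLE, ABCG1 and FASN have no entry there. Capitals mark TCACNCCAC, the sterol regulatory element core, and CCAAT or its reverse ATTGG. Genes with several windows are shown by their first.
INSIG1: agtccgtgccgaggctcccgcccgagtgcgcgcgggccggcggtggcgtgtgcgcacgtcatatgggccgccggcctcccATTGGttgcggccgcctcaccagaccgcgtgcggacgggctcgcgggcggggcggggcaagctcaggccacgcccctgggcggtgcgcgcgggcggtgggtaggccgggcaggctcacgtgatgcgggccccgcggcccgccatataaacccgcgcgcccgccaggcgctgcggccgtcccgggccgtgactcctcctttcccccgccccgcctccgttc
SREBF1: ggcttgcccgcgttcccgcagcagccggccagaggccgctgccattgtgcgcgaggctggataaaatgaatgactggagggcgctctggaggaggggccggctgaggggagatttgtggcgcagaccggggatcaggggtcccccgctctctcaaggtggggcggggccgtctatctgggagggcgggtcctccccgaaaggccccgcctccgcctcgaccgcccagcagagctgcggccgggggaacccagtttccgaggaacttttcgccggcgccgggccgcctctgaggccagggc
HMGCS1: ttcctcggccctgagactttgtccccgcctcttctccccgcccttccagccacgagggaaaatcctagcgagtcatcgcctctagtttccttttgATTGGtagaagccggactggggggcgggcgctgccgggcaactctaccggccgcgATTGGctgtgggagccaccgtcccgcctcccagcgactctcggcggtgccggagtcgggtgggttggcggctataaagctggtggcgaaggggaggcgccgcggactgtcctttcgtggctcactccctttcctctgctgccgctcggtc
DHCR7: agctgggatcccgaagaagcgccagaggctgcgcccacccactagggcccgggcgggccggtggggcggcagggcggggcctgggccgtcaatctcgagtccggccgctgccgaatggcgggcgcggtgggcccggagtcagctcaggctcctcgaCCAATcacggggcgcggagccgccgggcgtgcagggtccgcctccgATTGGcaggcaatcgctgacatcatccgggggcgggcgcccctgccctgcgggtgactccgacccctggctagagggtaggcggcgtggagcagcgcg
SREBF2: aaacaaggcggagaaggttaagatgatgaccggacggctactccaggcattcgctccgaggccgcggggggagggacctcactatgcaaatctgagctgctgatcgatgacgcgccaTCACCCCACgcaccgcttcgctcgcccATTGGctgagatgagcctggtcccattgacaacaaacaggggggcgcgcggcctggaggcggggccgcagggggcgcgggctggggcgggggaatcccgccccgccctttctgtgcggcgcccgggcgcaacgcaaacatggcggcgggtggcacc
In the order printed, the windows lie at chr7:155297628-155297927 on the plus strand, chr17:17836937-17837236 on the minus strand, chr5:43313363-43313662 on the minus strand, chr11:71448344-71448643 on the minus strand and chr22:41832855-41833154 on the plus strand, each written in the direction of its gene. The SREBF2 window holds TCACCCCAC at 133 bases before the start, with an ATTGG 18 bases after it. INSIG1 has 1 ATTGG, HMGCS1 has 2 and DHCR7 has 1 match in each direction, and SREBF1 has none in this window.

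Searched on both strands, CCAAT was in a window of 19 of the 26 genes, or 73.1%. It was in 39.7% of all 27305 genes of the promoter set, which holds many kinds of gene, and in 43.0% of the 9298 genes outside the module with at least 1 FPKM in a human line. By role it was found for 13 of 15 synthesis enzymes, 2 of 5 control genes and 3 of 5 genes of transport, storage and efflux. The genes with no match were PMVK, CYP51A1, SREBF1, SCAP, INSIG2, ABCA1 and NPC1, of which SREBF1 was past 1.5-fold toward Jurkat and NPC1 toward TALL104. TCACNCCAC, which includes TCACCCCAC as a special case, was found in SREBF2 alone, or 3.85% of the genes, against 1.39% of all genes. GGGCGG, a GC box, was in 96.2% of the genes against 48.3% of all and 76.8% of the detected genes, and CACGTG, an E-box, in 19.2% against 8.77% and 12.8%. In the windows printed no TCACNCCAC overlaps a CCAAT, while GGGCGG matches can overlap each other. These matches are a description of letters in a window, and no comparison of the shares was tested.

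Transport, storage and efflux did not follow the synthesis genes in the human lines. Of 6 genes 2 (33.3%) were past 1.5-fold toward Jurkat and 2 (33.3%) toward TALL104, near the 34.2% and 28.4% of detected human genes. The summed level was 53.3 FPKM in Jurkat and 70.6 FPKM in TALL104. NPC1 and NPC2 act together to release cholesterol from lysosomes, and both were higher in TALL104. NPC1, at chr18:21086148-21166470 of GRCh37, was at 4.73 FPKM (4.50 to 4.96) in Jurkat and 17.9 FPKM (17.4 to 18.4) in TALL104, a ratio of 3.78 (3.58 to 4.00) toward TALL104. NPC2, at chr14:74942895-74960880, was at 7.89 FPKM (7.33 to 8.47) and 23.1 FPKM (22.0 to 24.2), a ratio of 2.93 (2.69 to 3.19) toward TALL104. These were the module's only genes past 1.5-fold toward TALL104 as reported, and CYP51A1 joined them when the median shift was taken out, at a log2 ratio of -0.60, when mitochondrially encoded genes were left out of the scale, and with 0.1 or 0.01 FPKM added.

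The other genes of this group were level or higher in Jurkat. STARD4, which carries cholesterol between membranes, was at 14.9 FPKM in Jurkat and 8.88 FPKM in TALL104, a log2 ratio of 0.68 that became 0.58 with the median shift taken out and then lay within the limit. SOAT1, which esterifies cholesterol for storage, was at 19.1 FPKM (18.6 to 19.7) and 18.8 FPKM (18.2 to 19.4), and the sign of its small log2 ratio, like that of INSIG2, turned when the shift was taken out. ABCG1, an exporter of cholesterol, was at 6.49 FPKM (6.15 to 6.84) and 1.92 FPKM (1.72 to 2.14), a ratio of 3.38 (3.001 to 3.83). ABCA1, the exporter that loads lipid-poor particles, was at 0.279 FPKM (0.229 to 0.336) from 110 reads in Jurkat and 0.00311 FPKM (7.87e-05 to 0.0173) from 1 read in TALL104. That is a ratio of 89.6 with a counting interval from 15.8 to 3572, while the log2 ratio with 1 FPKM added was 0.35. Both exporters thus had their higher human level in Jurkat, ABCA1 at a level below 1 FPKM. FASN, fatty acid synthase, was at 27.4 FPKM (26.8 to 28.0) in Jurkat and 13.2 FPKM (12.8 to 13.7) in TALL104, a ratio of 2.07 (1.99 to 2.16).

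**Figure D3:**
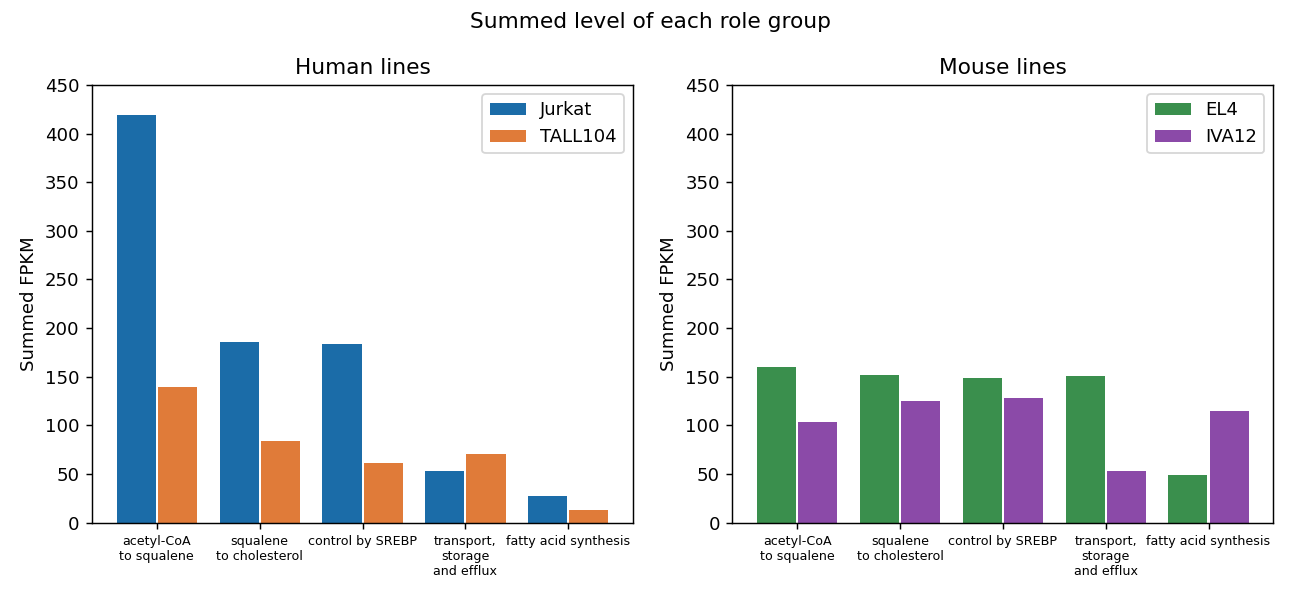
Summed FPKM of each role group, as bars from 0, in the human lines on the left and the mouse lines on the right. The first human group sums to 420 FPKM in Jurkat and 139 FPKM in TALL104, while transport, storage and efflux is the mouse group with the largest gap toward EL4, 151 against 53.6 FPKM.

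Between the mouse lines, 9 of 31 genes were more than 1.5-fold higher in EL4 and 4 were more than 1.5-fold higher in IVA12, or 29.0% and 12.9%. Among mouse genes with at least 1 FPKM in either line, 23.8% were past that ratio toward EL4 and 26.5% toward IVA12, and the shares among all mouse genes were 9.75% and 11.2%. The module's share toward EL4 thus lay near that of detected genes and its share toward IVA12 below it. The median log2 ratio of the module was 0.22 toward EL4, against -0.04 over the 10801 mouse genes with at least 1 FPKM in either line. Of the proliferation genes, 4 of 15 were past 1.5-fold toward EL4 and none toward IVA12, with a median log2 ratio of 0.22 and summed levels of 1698 and 1356 FPKM. Pcna, the sliding clamp of DNA replication, was at 236 and 122 FPKM, and Mcm5, of the replicative helicase, at 162 and 89.3 FPKM.

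Fewer mouse than human synthesis enzymes were past 1.5-fold, with 5 of 18 toward EL4 and 1 toward IVA12, against 12 of 18 and 0 of 18 in the human pair. The mouse shares were 27.8% and 5.56%, beside 23.8% and 26.5% of detected mouse genes. The human shares were 66.7% and 0%, beside 34.2% and 28.4% of detected human genes. Detected genes at large were thus also past 1.5-fold more often in the human pair. Whether the species differ in the synthesis enzymes was not tested. From acetyl-CoA to squalene Hmgcs1 alone was past the limit, at 74.3 FPKM in EL4 and 23.5 FPKM (22.4 to 24.5) in IVA12, a ratio of 3.16 (3.01 to 3.33). The other 7 genes of that stretch had log2 ratios from -0.20 for Pmvk to 0.49 for Mvk. Among them Acat2 was at 21.6 FPKM in EL4 and 15.5 FPKM in IVA12, Mvk at 7.63 and 5.14, Pmvk at 15.7 and 18.1, Mvd at 14.1 and 14.4, and Idi1 at 11.7 and 13.0. Acat2 and Idi1 share 28.9% and 15.8% of their exon windows of 100 bases with copies elsewhere in the genome, and 26.7% of the exon bases of Fdps overlap Gm43738 on the same strand, so their levels are uncertain. Ctsb on the opposite strand overlaps 18.3% of the exon bases of Fdft1, a limit on its level if counting ignored strand.

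From squalene to cholesterol 4 of 10 mouse genes were past 1.5-fold toward EL4, all but 1 of them narrowly. Sqle was at 19.8 FPKM in EL4 and 12.7 FPKM in IVA12, Cyp51 at 43.0 and 27.4, and Msmo1 at 10.6 and 6.69, with log2 ratios of 0.61, 0.63 and 0.59 just past the limit. Hsd17b7 was at 5.60 FPKM and 2.54 FPKM, a ratio of 2.20 (1.94 to 2.51). Nsdhl went the other way, at 10.9 FPKM in EL4 and 19.2 FPKM in IVA12, a ratio of 1.77 (1.63 to 1.92) toward IVA12. The remaining genes stayed within the limit, Lss at 7.21 and 5.22 FPKM, Ebp at 13.5 and 15.2, Sc5d at 27.8 and 24.3, and Dhcr7 at 12.5 and 10.6. Tm7sf2 was the lowest synthesis gene of the mouse lines, at 1.09 FPKM (0.833 to 1.40) in EL4 and 1.16 FPKM (0.862 to 1.52) in IVA12.

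Srebf1 and Insig1 differed less between the mouse lines than their human counterparts did between the human lines, while Srebf2, Scap and Insig2 differed more. Srebf1 was at 22.5 FPKM (21.9 to 23.2) in EL4 and 27.7 FPKM (26.9 to 28.6) in IVA12, a ratio of 1.23 (1.18 to 1.29) toward IVA12. Srebf2 was at 56.05 and 38.3 FPKM, a log2 ratio of 0.54 that lay just inside the limit. Insig1 was at 53.2 and 37.5 FPKM, a ratio of 1.42 (1.36 to 1.49), and Insig2 at 8.70 FPKM (8.16 to 9.26) and 9.86 FPKM (9.22 to 10.54). The single control gene past 1.5-fold was Scap, at 8.34 FPKM (7.98 to 8.72) in EL4 and 14.3 FPKM (13.8 to 14.9) in IVA12, a ratio of 1.72 (1.62 to 1.82) toward IVA12.

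Insig1 was 6.12 times (5.71 to 6.56) the level of Insig2 in EL4 and 3.80 times (3.52 to 4.11) in IVA12, so that INSIG1 exceeded INSIG2 in all 4 libraries. The order of that ratio was Jurkat, EL4, IVA12 and TALL104, with no overlap between neighbouring counting intervals. SREBF1 was below SREBF2 in all 4 libraries, and in the mouse lines Srebf1 was at 0.402 times (0.388 to 0.417) the level of Srebf2 in EL4 and 0.724 times (0.694 to 0.755) in IVA12. TALL104, at 0.0631, stood apart from the other 3 libraries in this ratio, which lay between 0.402 and 0.724.

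**Figure D4:**
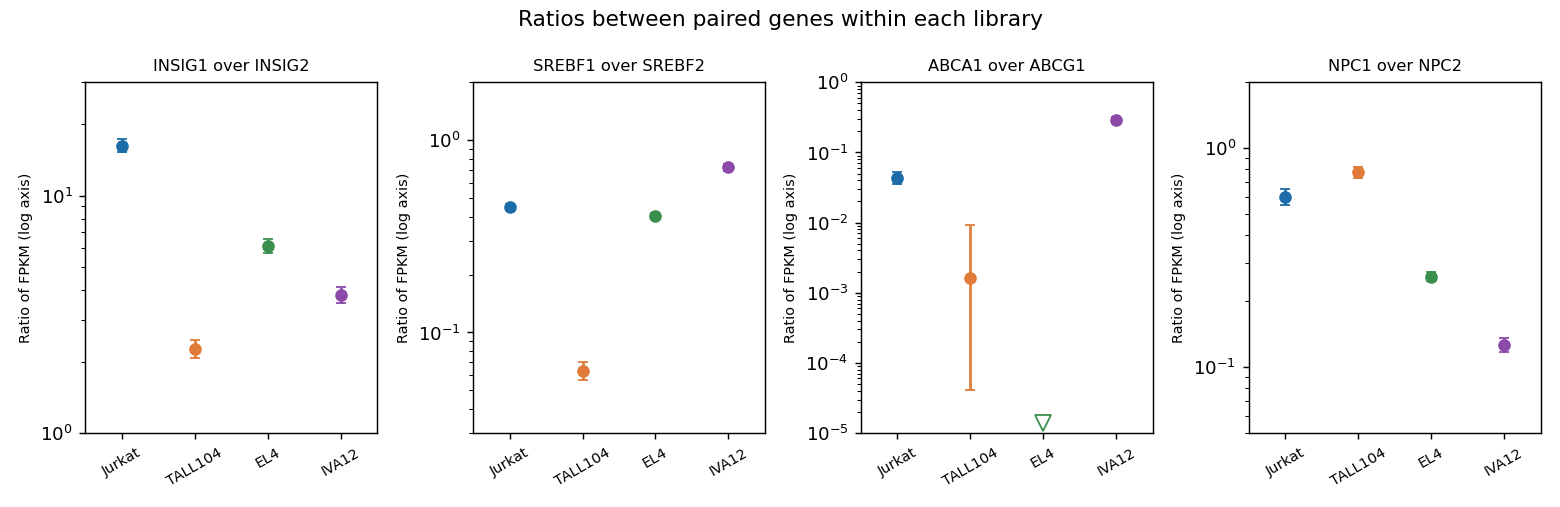
Ratio of the FPKM of paired genes within each library on log axes, from left to right INSIG1 over INSIG2, SREBF1 over SREBF2, ABCA1 over ABCG1 and NPC1 over NPC2, with 95% exact counting intervals as bars. INSIG1 over INSIG2 runs from 2.26 in TALL104 to 16.2 in Jurkat, SREBF1 over SREBF2 from 0.0631 in TALL104 to 0.724 in IVA12, and the open triangle marks EL4, where Abca1 had 0 reads.

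The largest differences between the mouse lines were in transport, storage and efflux, where 4 of 6 genes were past 1.5-fold toward EL4 and 1 toward IVA12. These are 66.7% and 16.7% of the group, beside 23.8% and 26.5% of detected mouse genes. The summed level of the group was 151 FPKM in EL4 and 53.6 FPKM in IVA12, a ratio of 2.81. Soat1, at chr1:156424525-156474331 of GRCm38, had the largest ratio of the module on FPKM + 1, at 23.1 FPKM (22.5 to 23.6) in EL4 and 1.53 FPKM (1.38 to 1.70) in IVA12, a ratio of 15.0 (13.5 to 16.7). Of the detected mouse genes 2.64% had a larger log2 ratio toward EL4. Stard4 was at 31.1 FPKM (30.3 to 32.0) and 5.52 FPKM (5.14 to 5.92), a ratio of 5.64 (5.23 to 6.09). Soat1, for storage, and Stard4, for transfer between membranes, thus both had more messenger RNA in EL4. Each is a single gene, so the processes themselves were not compared.

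The exporters took opposite directions in the mouse lines. Abcg1 was at 44.5 FPKM (43.4 to 45.7) in EL4 and 9.17 FPKM (8.60 to 9.78) in IVA12, a ratio of 4.85 (4.53 to 5.20). Abca1, at chr4:53030787-53159895 of GRCm38, had 0 reads in EL4 and 703 reads in IVA12, which is 2.68 FPKM (2.49 to 2.89). A count of 0 allows up to 3 reads, or 0.00900 FPKM in EL4, so against that floor Abca1 was at least 298-fold higher in IVA12. The lower limit of the exact 95% interval of the ratio was 242. ABCA1 was below ABCG1 in every library, at 0.292 times its level (0.265 to 0.323) in IVA12, 0.0429 times (0.0350 to 0.0521) in Jurkat and, from 1 read, 0.00162 times (4.09e-05 to 0.00909) in TALL104.

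Npc1 was at 10.7 FPKM (10.4 to 11.1) in EL4 and 3.89 FPKM (3.66 to 4.13) in IVA12, a ratio of 2.75 (2.57 to 2.95). Npc2 was at 41.4 FPKM (40.1 to 42.6) and 30.8 FPKM (29.6 to 32.0), within 1.5-fold. NPC1 was below NPC2 in all 4 libraries, at 0.599 and 0.775 times its level in Jurkat and TALL104 and at 0.259 and 0.126 times in EL4 and IVA12. In fatty acid synthesis the direction was toward IVA12. Fasn, at chr11:120805846-120824547 of GRCm38, was at 38.5 FPKM (37.9 to 39.2) in EL4 and 101.0 FPKM in IVA12, a ratio of 2.62 (2.57 to 2.68) toward IVA12. Acaca, which makes the malonyl-CoA that FASN uses, was at 10.003 FPKM (9.74 to 10.3) and 13.4 FPKM (13.0 to 13.7), and shares 23.7% of its exon windows with copies elsewhere. Fasn was 3.85 times (3.73 to 3.97) the level of Acaca in EL4 and 7.54 times (7.33 to 7.76) in IVA12.

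Set side by side, 5 genes were past 1.5-fold toward Jurkat and toward EL4, namely HMGCS1, SQLE, MSMO1, STARD4 and ABCG1. NSDHL and FASN were past it toward Jurkat and toward IVA12, and NPC1 toward TALL104 and toward EL4. A further 10 genes were past it toward Jurkat only, 3 toward EL4 only (Cyp51, Hsd17b7 and Soat1), 2 toward IVA12 only (Scap and Abca1), NPC2 toward TALL104 only, and 6 in neither pair. The shares of genes at large in these joint classes were not counted, so the numbers only describe the module. Taken singly, 56.7% of the module was past it toward Jurkat, against 34.2% of detected human genes. Toward EL4 it was 29.0%, against 23.8% of detected mouse genes. Of 30 genes 16 had log2 ratios of the same sign in both pairs, as had 3966 of 8281 genes with a shared symbol and at least 1 FPKM in a line of each pair. Over the 30 genes the ratios of the pairs had a Pearson correlation of -0.06, and over the 8281 it was also -0.06. HMGCS1, the entry enzyme, was the gene with the largest human ratio among those that also led in EL4.

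**Figure D5:**
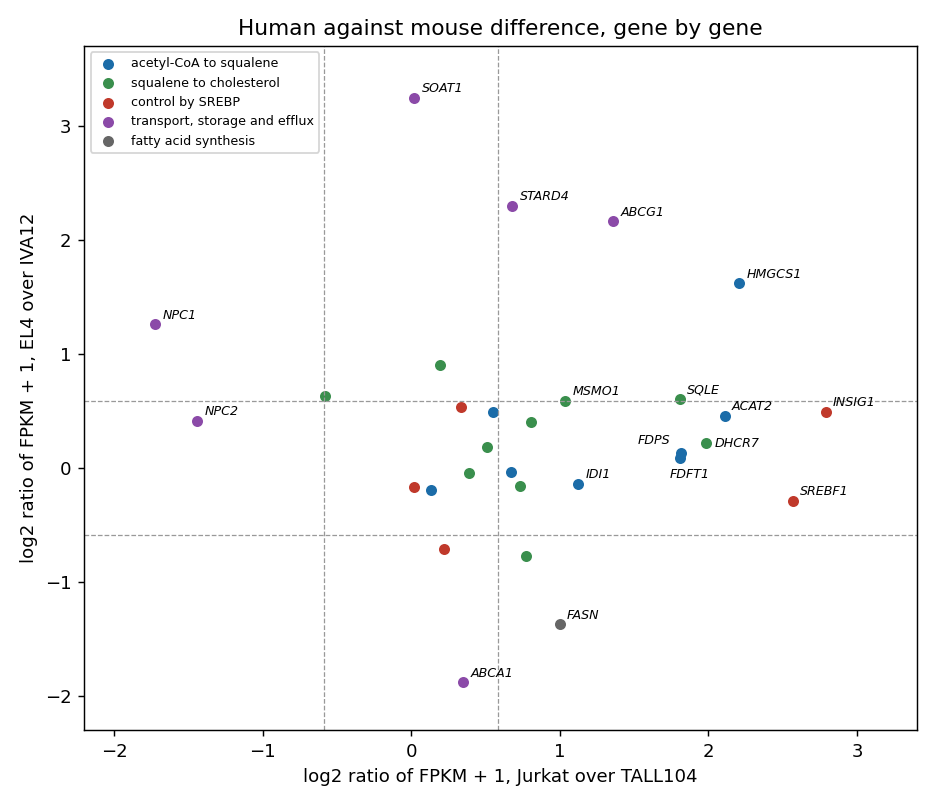
Log2 ratio of FPKM + 1 of each of 30 genes, Jurkat over TALL104 on the horizontal and EL4 over IVA12 on the vertical axis, coloured by role, with dashed lines at 1.5-fold. INSIG1 and SREBF1 lie far to the right near the horizontal band of no mouse difference, SOAT1 lies high near no human difference, and HMGCS1 and ABCG1 lie past both lines.

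The order of levels within the module was more alike within than between species. On log2(FPKM + 1), the levels had a Pearson correlation of 0.78 between Jurkat and TALL104 over 30 genes and of 0.70 between EL4 and IVA12 over 31 genes. Between species it was 0.33 for Jurkat and EL4, 0.26 for Jurkat and IVA12, 0.31 for TALL104 and EL4 and 0.17 for TALL104 and IVA12. For genes of shared symbol with at least 1 FPKM in either of the libraries compared, the same correlations between species were 0.61, 0.58, 0.45 and 0.40. Within species the background was another set, all genes of the species with at least 1 FPKM in either line. There it was 0.62 over 12214 genes for the human pair and 0.71 over 10801 genes for the mouse pair. The genes of a library share its depth and its gene models, and the models differ in length between species. FDPS and FDFT1 ranked among the highest 3 of the module in both human lines, while in the mouse lines Fdft1 was in the middle of the order and Fdps, whose level is uncertain, near its end. CYP51A1, whose level is also uncertain, ranked 30 and 29 of 30 in Jurkat and TALL104, and Cyp51 ranked 5 and 6 of 31 in EL4 and IVA12.

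Beyond the module, 30 further genes of sterol and lipid handling were looked at. In the human pair 8 were past 1.5-fold toward Jurkat and 9 toward TALL104, with a median log2 ratio of 0.02 and summed levels of 609 FPKM in Jurkat and 381 FPKM in TALL104. The shares among human genes with at least 1 FPKM in either line were 34.2% and 28.4%, and among all human genes 13.8% and 11.4%. TMEM97, a sterol-binding membrane protein, was at 46.0 FPKM in Jurkat and 1.68 FPKM in TALL104. GRAMD1B, which carries cholesterol from the plasma membrane, was at 0.436 and 8.02 FPKM. In the mouse pair 5 were past 1.5-fold toward EL4 and 3 toward IVA12, with a median log2 ratio of -0.01 and summed levels of 638 and 635 FPKM. The shares among mouse genes with at least 1 FPKM in either line were 23.8% and 26.5%, and among all mouse genes 9.75% and 11.2%. Fads2, a fatty acid desaturase, had 0 reads in EL4 and was at 30.5 FPKM in IVA12, and Fntb, a farnesyltransferase subunit, was at 8.92 and 1.71 FPKM.

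Markers of cell types that handle much cholesterol were low. All 5 hepatocyte markers were under 1 FPKM in all 4 libraries. Of 8 macrophage markers 7 were under 1 FPKM in each human line and in IVA12 and 6 in EL4, with Csf1r and its human counterpart at 0 reads throughout. The exception was CD68, a lysosomal protein, at 1.05 FPKM in Jurkat and 1.42 in TALL104 and, as Cd68, at 2.43 in EL4 and 22.5 in IVA12. LYZ was at 0.0326 and 0.160 FPKM in the human lines and Lyz2 at 1.15 and 0.0937 FPKM in the mouse lines. Of the B-lineage markers 1 of 8 was past 1.5-fold toward Jurkat (MZB1, at 47.7 against 8.88 FPKM) and 2 toward TALL104 (CD79B, at 4.80 against 0.0415 FPKM, and JCHAIN), and 5 of 8 toward IVA12 in mouse. Line and lineage cannot be told apart in the mouse pair.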

How the data were processed

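Messenger RNA of 4 cell lines was sequenced, with 1 stranded library per line. The authors aligned the reads with STAR 2.5.1b to a joint human hg19 and mouse mm10 reference from Cell Ranger 1.2.0, counted reads per gene with featureCounts 1.6.3, and deposited FPKM for every gene in every library. Whether counting used strand, and how reads with several alignments were treated, is not given in the sources used here. The table held 0 further columns per library.

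Each FPKM was a whole number of reads scaled by gene length and library total, so totals and reads were solved for at a relative tolerance of 1e-12. For 31 of the 61 genes the length so found was that of the annotated exons. Reads of the others may miss a common factor, which would make their intervals too wide. Symbols and positions came from GENCODE releases on GRCh37 and GRCm38, matched by identifier.

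Ratios were log2 of FPKM + 1 and were counted past 1.5-fold. No test was made, since each line had 1 library. Genes described in full, with intervals, were the 5 with the largest absolute ratio in each pair, the 3 highest of each library, those under 1 FPKM, and the SREBP, SCAP, INSIG and ABC transporter genes. From each other list the 2 genes with the largest absolute ratio were named, except that hepatocyte markers are given by counts. JCHAIN, CSF1R, mouse Cd79b, and the B-lineage genes low in IVA12 were named after their values were seen. The values of 1 B-lineage marker are not reported here. The module and the lists were chosen with earlier results of these data known. Alternatives were 1 FPKM as a minimum in either line, additions of 0.1 or 0.01 FPKM in place of 1, scaling by the median ratio or without mitochondrially encoded genes, a 2-fold threshold, shares of recovered reads, and Spearman rho. Values were taken to have moved beyond 1.96 SDs of 200 Poisson draws, and counts by over 1.5 times. Human protein sequences and the level of human ACACA were not analysed here, while the ACACA promoter windows were.

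The calculation was tested on simulated data with 200 changed genes per pair. In both the human and the mouse simulation all 100 genes changed 2-fold and all 100 changed 4-fold were counted in the right direction, and 0 of 7499 and 0 of 7084 unchanged genes with 5 FPKM or more were counted. The changed genes too were drawn from genes with a mean of 5 FPKM or more, with counting noise only. Genes below that level, such as ABCA1 and CYP51A1 in the human lines, were not covered. With annotated lengths withheld, the read numbers came out right for 89.6% of the genes with reads among 31182 simulated human genes, and for 90.1% among 27645 mouse genes. Python 3.11.15, NumPy 2.4.6, pandas 2.3.3, SciPy 1.17.1 and matplotlib 3.10.9 were used.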

Additional observations from a re-analysis of the deposited data

Results flagged for a closer look

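Reads assigned to the module's genes of the other species were counted in each library, since no such reads are due in a line of 1 species. There were 26 reads over 17 mouse genes in Jurkat, 27 over 14 mouse genes in TALL104, 42 over 20 human genes in EL4 and 160 over 27 human genes in IVA12. Each count is above the 3 reads that a count of 0 allows. The highest such level was 0.0372 FPKM for Insig1 in Jurkat, 0.0258 for Fasn in TALL104, 0.0729 for PMVK in EL4 and 0.150 for MSMO1 in IVA12. ABCA1 in TALL104, at 0.00311 FPKM from 1 read, lies below the highest such level of its library. ABCA1 in Jurkat at 0.279 FPKM, CYP51A1 in Jurkat at 0.106 and in TALL104 at 0.649 FPKM, and Abca1 in IVA12 at 2.68 FPKM lie above those of theirs.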

How the results depend on the processing

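No paired analysis was possible because each line has 1 library and the labels carry no replicate numbers. The log2 ratios of INSIG2 and SOAT1, within 1.5-fold throughout, turned sign to -0.08 and -0.09 under median scaling and to -0.07 and -0.08 without mitochondrially encoded genes. No other gene of the module turned direction under the alternatives run. No mouse gene changed its side of 1.5-fold except under the 2-fold threshold. That threshold left 11 genes toward Jurkat, 5 toward EL4 and 2 toward IVA12. Of human genes, MVK and ABCA1 passed 1.5-fold toward Jurkat and CYP51A1 toward TALL104 with 0.1 FPKM added, SC5D with 0.01, CYP51A1 also under both scalings, and MVD and STARD4 fell within it under median scaling. The human median was 0.80 and 0.81 with 0.1 and 0.01 FPKM added, 0.60 under median scaling and 0.62 without mitochondrially encoded genes. Under the last 2 settings the human group medians were 1.36 and 1.37 (acetyl-CoA to squalene), 0.65 and 0.67 (squalene to cholesterol), 0.22 and 0.24 (control), and 0.89 and 0.91 (FASN). The human median for transport, storage and efflux, 0.19 as reported, was 0.38 with 0.1 and 0.38 with 0.01 FPKM added, 0.021 without ABCA1, which the 1 FPKM minimum leaves out, and 0.13 under median scaling, and the mouse median was 1.85 and 1.87 with 0.1 and 0.01 added. Without mitochondrially encoded genes the module's share was 0.403% and 0.184% in Jurkat and TALL104 and 0.216% and 0.170% in EL4 and IVA12. IVA12 in place of TALL104 then had the lowest share. As recovered reads the shares were 0.405%, 0.180%, 0.324% and 0.301% in the same order of libraries, lowest in TALL104. Spearman's rho was 0.70 for Jurkat and TALL104, 0.25 and 0.29 for Jurkat with EL4 and IVA12, and 0.16 and 0.15 for TALL104 with EL4 and IVA12. With 0.1 FPKM added, Pearson's r was 0.81, 0.40, 0.24, 0.50 and 0.20 in that order and 0.65 for EL4 and IVA12. These values moved by more than counting error, and the cause was not tested. Few reads limit ABCA1 in TALL104, at 1 read, and CYP51A1 in Jurkat, at 5 reads. For CYP51A1 the gene model used in counting is a further limit, and the cause of its low count was not tested.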
